A study of Mus musculus with 9 samples.

Results

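The genes described here are 10 genes of the neutrophil: the granule genes Mpo, Elane, Ltf, Ngp and Camp, the calprotectin genes S100a8 and S100a9, and the surface receptor genes Csf3r, Trem1 and Clec4d. They were taken as every probe whose platform gene symbol is one of these names, which gave 10 probes, 1 per gene, among 26423 probes that name 17742 genes. Colon tissue of female BALB/c mice was hybridised to 9 microarrays, 3 for each of 3 groups. Mock mice had no treatment. Sham mice had a single intraperitoneal dose of the colon carcinogen azoxymethane (AOM, 12.5 mg/kg) on day 1, and on day 8 their drinking water was changed to 2.5% dextran sodium sulfate (DSS), a detergent-like polymer that injures the gut lining. The DSS lasted 5 days and was followed by 16 days of plain water, and 3 more DSS cycles came after the first. Vanillin mice had that AOM/DSS course and also took 100 mg/kg oral vanillin for 91 days. Neither the age of the mice nor the number of mice behind the 3 arrays of a group is stated in the labels. The spread behind each p-value is therefore that between arrays and may be technical.

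Neutrophils mature in the bone marrow through stages that are marked by their granules. Promyelocytes make the azurophil granules, which hold myeloperoxidase and elastase. Later precursors make the specific granules, with lactoferrin, cathelicidin and the neutrophilic granule protein. Most granule mRNAs are then shut down, while mature cells in the blood and tissue express receptors for growth factors and microbial products and keep very high levels of the calprotectin mRNAs. Injured and inflamed colon is known for neutrophils that enter the mucosa and cross the epithelium. Some of these genes also have other sources: keratinocytes and other stressed epithelia make calprotectin, gland epithelium secretes lactoferrin, and monocytes and macrophages carry Trem1 and Clec4d.

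Values are probe intensities on a linear scale. A change is a difference of group means of log2(intensity + 16) with its standard error (SE), so it understates the change of dim probes. A gene is said to have risen or fallen where the adjusted p of limma's moderated test, over all 26423 probes of a comparison, is under 0.05. The median intensity was 319.6 to 320.1 in every array, and 19.9% to 20.1% of probes per array lay below 50. Arrays of the same group had a correlation of 0.995 to 0.998 over all probes, and arrays of Mock and Sham 0.926 to 0.929. The number of arrays limits the precision. The samples are labelled colon and carried intestinal epithelial markers such as Lgals4 (mean intensity 63294 in Mock, 65508 in Sham and 65135 in Vanillin). Lgals4 lay close to the highest values of the arrays, so a change between groups could be hidden. The probe of the keratin gene Krt8 was at the floor in all groups, with mean intensities of 4.52 in Mock, -1.24 in Sham and -43.6 in Vanillin. The samples also carried markers of squamous epithelium, whose list is given with the other cell types.

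The surface receptor genes rose steeply in the AOM/DSS colon, and the granule genes did not move as a group. In Sham minus Mock, the AOM/DSS course against no treatment, 4 of the 5 genes of mature or activated cells rose and 1 fell (median change 3.21). Of the 5 granule genes of immature cells, 3 rose and 2 fell (median 0.60). Of all 10 genes, 7 rose and 3 fell, and none was left uncalled, where 59.7% of all probes were called (36.5% higher and 23.2% lower). The median change of all probes was 0.10. The 3 arrays of Sham did not overlap those of Mock for any of the 10 genes (7 higher and 3 lower), which held for 67.1% of all probes (41.2% higher, 25.9% lower). Vanillin minus Sham asks what vanillin added to that course. There 4 of the 5 mature genes rose and 1 was not called (median 1.00), while 3 of the 5 granule genes rose and 2 were not called (median 0.52). Here 47.9% of all probes were called, 15.7% higher and 32.2% lower, and the median of all probes was -0.09. The arrays did not overlap for 9 of the 10 genes, 8 higher and 1 lower, against 56.3% of all probes (18.2% higher, 38.1% lower). Both comparisons use the same Sham arrays. The difference between the classes was not tested. In bulk tissue, more neutrophils and more mRNA per neutrophil cannot be told apart.

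**Figure D1:**
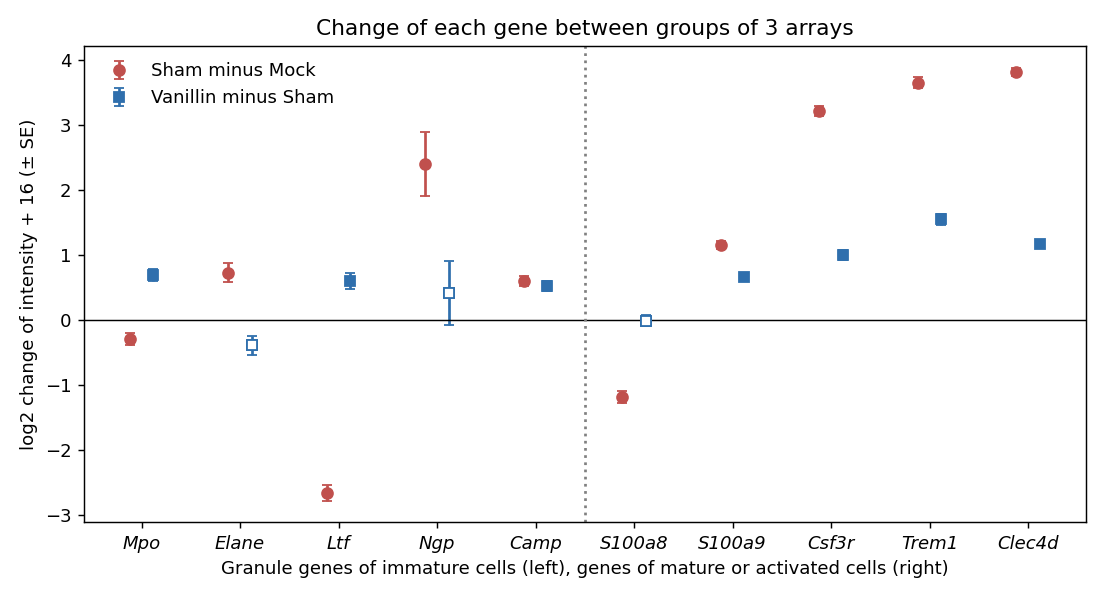
The log2 change (vertical axis, intensity + 16, with SE) of the 10 genes in Sham minus Mock (circles) and Vanillin minus Sham (squares), with 3 arrays in each group. Open symbols mark changes that were not called. The 3 receptor genes on the right lie above 3 in Sham minus Mock and between 1.00 and 1.55 in Vanillin minus Sham, while the granule genes on the left lie on both sides of 0.

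Mpo encodes myeloperoxidase, the azurophil granule enzyme that makes hypochlorous acid. Its intensity was 593, 495 and 525 in Mock 1, 2 and 3, then 428, 438 and 437 in Sham, and 653, 809 and 679 in Vanillin. All 3 Sham arrays were below all Mock arrays, and all Vanillin arrays were above both other groups. The fall in Sham was small (-0.29, SE 0.09, limma adjusted p = 0.0191), and its adjusted p was 0.0641 without Mock replicate 1 and 0.0523 without Sham replicate 1. Mpo rose in Vanillin minus Sham by 0.69 (SE 0.09, limma adjusted p = 2.7e-04).

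Elane encodes neutrophil elastase, a serine protease of the same granules. Its probe was dim, with intensities of 52.7, 80.1 and 83.4 in Mock, 136, 138 and 111 in Sham, and 106, 92.7 and 84.2 in Vanillin. The Sham arrays were the highest, with no overlap with either other group. Elane rose in Sham minus Mock (0.73, SE 0.15, limma adjusted p = 0.0022). Against Sham, Vanillin was at -0.39 (SE 0.15), which was not called at a limma adjusted p = 0.0571. The call changed with the setting: the adjusted p was 0.021 with only the 6 arrays compared, 0.0116 when Mock replicate 1 was left out, 0.0427 when Sham replicate 3 was, and 0.0494 when Vanillin replicate 1 was. With the replicate number as a block in those 6 arrays it was 0.0083, and with the block in all 9 arrays 0.0926. Mpo and Elane thus had opposite signs in the comparisons with Sham, and both were positive in Vanillin minus Mock.

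Ltf encodes lactoferrin, the iron-binding protein of specific granules, and it had the largest fall of the 10 genes. Its intensity was 41339, 42513 and 39802 in Mock, 6439, 6604 and 6445 in Sham, and 7877, 11327 and 10721 in Vanillin. The groups did not overlap, with Mock highest and Sham lowest. The fall in Sham minus Mock was -2.66 (SE 0.12, limma adjusted p = 7.9e-08), or 6.33-fold lower. Only 603 of the 26423 probes had a lower value in that comparison. Ltf rose in Vanillin minus Sham by 0.60 (SE 0.12, limma adjusted p = 0.003), and Vanillin stayed below Mock by -2.06.

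Ngp encodes the neutrophilic granule protein, a cathelicidin relative of specific granules, and it moved the opposite way. Its intensity was 85.7, 4.56 and 9.89 in Mock, 195, 167 and 194 in Sham, and 256, 248 and 254 in Vanillin. Mock replicate 1 stood apart from the other Mock arrays, and all groups were separate. Ngp rose in Sham minus Mock by 2.41 (SE 0.49, limma adjusted p = 0.0023). Since Mock was close to the bottom of the range, the size depends on the pseudocount, and it was 3.42 with a pseudocount of 1 and 1.45 with 64. The value in Vanillin minus Sham was 0.42 (SE 0.49, limma adjusted p = 0.52), not called although every Vanillin array was above every Sham array. The shared estimate of the spread holds the Mock arrays: with only the 6 arrays compared, the SE was 0.07 and the adjusted p = 0.003, and without Mock replicate 1 the adjusted p was 0.0069. The replicate number as a block gave an adjusted p of 0.0060 in those 6 arrays and 0.482 in all 9.

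Camp encodes cathelicidin, the precursor of an antimicrobial peptide in specific granules. Its intensity was 181, 196 and 173 in Mock, 308, 272 and 278 in Sham, and 458, 416 and 383 in Vanillin, with no overlap between groups. Camp rose in both steps, by 0.60 (SE 0.079, limma adjusted p = 1.5e-04) and then by 0.52 (SE 0.079, limma adjusted p = 6.4e-04). Camp and Ngp were thus lowest in Mock and highest in Vanillin, while Ltf was highest in Mock and lowest in Sham.

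The promoters of Ltf and Ngp are shown because these genes of the same granule moved in opposite directions. Each sequence is the 250 bases before the start of the gene in RefSeq, build GRCm38.p6, written 5′ to 3′ on the gene's own strand. Ltf lies on the plus strand at chr9:111019042-111019291, and Ngp on the plus strand at chr9:110419558-110419807. Capitals mark matches, on either strand, to a loose C/EBP motif (TTNNGNAA) and to the core of the PU.1 motif (GAGGAA), factors of the granulocyte lineage.
Ltf: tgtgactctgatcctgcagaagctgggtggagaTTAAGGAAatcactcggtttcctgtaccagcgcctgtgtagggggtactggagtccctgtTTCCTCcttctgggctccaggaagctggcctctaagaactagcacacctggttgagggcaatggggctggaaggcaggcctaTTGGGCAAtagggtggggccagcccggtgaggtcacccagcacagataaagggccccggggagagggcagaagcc
Ngp: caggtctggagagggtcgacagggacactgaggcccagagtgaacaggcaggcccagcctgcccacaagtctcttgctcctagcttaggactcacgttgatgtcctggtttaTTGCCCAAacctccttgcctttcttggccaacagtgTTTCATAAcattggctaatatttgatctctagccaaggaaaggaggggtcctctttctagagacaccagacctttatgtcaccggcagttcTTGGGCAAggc
The Ltf window holds 2 matches to the C/EBP letters (TTAAGGAA and TTGGGCAA) and 1 to those of PU.1 (TTCCTC, its reverse complement). The Ngp window holds 3 matches to the C/EBP letters (TTGCCCAA, TTTCATAA and TTGGGCAA) and none to the PU.1 core.

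S100a8 and S100a9 encode the subunits of calprotectin, a metal-binding alarmin of the neutrophil cytosol, and RefSeq lists them as neighbouring genes. Their probes went in opposite directions. S100a9 had intensities of 18267, 18154 and 16512 in Mock, 38772, 39521 and 40027 in Sham, and 58397, 62669 and 65509 in Vanillin. The groups did not overlap and rose in that order, by 1.16 (SE 0.061, limma adjusted p = 2.4e-07) and then by 0.66 (SE 0.061, limma adjusted p = 3.3e-05). The Vanillin arrays lay at 89.1%, 95.7% and 100.0% of the highest value of their array, so the second change may be too small.

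S100a8 had intensities of 171, 195 and 216 in Mock, 77.0, 80.3 and 70.6 in Sham, and 81.1, 71.3 and 72.9 in Vanillin. Mock was highest, and the Sham and Vanillin arrays overlapped. S100a8 fell in Sham minus Mock by 1.19 (SE 0.085, limma adjusted p = 2.2e-06). The value in Vanillin minus Sham was -0.01 (SE 0.085, limma adjusted p = 0.91), and its sign turned when single arrays were left out. The probe was dim in all groups (70.6 to 216, against 16512 to 65509 for S100a9). With 1 probe per gene no other probe of S100a8 was at hand to set beside it. No probe sequence was at hand either, so whether this probe measures S100a8 could not be settled.

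The promoters of these neighbours are shown because their probes went in opposite directions, with that limit on the S100a8 probe. Capitals are as above. S100a8 lies on the plus strand at chr3:90668821-90669070, and S100a9 on the minus strand at chr3:90695722-90695971.
S100a8: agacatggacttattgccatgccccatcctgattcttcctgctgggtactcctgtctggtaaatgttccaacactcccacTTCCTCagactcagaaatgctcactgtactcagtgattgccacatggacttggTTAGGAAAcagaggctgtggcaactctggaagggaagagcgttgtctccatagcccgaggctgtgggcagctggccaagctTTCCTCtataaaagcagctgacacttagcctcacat
S100a9: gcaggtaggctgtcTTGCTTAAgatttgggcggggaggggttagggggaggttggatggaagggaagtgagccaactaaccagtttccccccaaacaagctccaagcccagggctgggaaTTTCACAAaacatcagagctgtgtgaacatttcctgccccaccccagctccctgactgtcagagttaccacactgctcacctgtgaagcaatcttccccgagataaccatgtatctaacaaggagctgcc
The S100a8 window holds 1 match to the C/EBP letters (TTAGGAAA) and 2 to the reverse complement of the PU.1 core (TTCCTC). The S100a9 window holds 2 matches to the C/EBP letters (TTGCTTAA and TTTCACAA) and none to the PU.1 core. Among the 10 genes, 6 windows held the C/EBP letters and 7 held the PU.1 core, where 36.8% and 23.3% of 32851 RefSeq windows of 250 bases did. No match to one motif overlapped a match to the other in these windows. The PU.1 core was also held by the windows of Elane, Csf3r, Trem1 and Clec4d, which rose in Sham minus Mock, and of Mpo, which fell. The window of Camp, which rose, held neither motif. These matches are letters only, and their relation to the direction of change was not tested.

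Csf3r encodes the receptor of granulocyte colony-stimulating factor, which drives neutrophil production and survival. Its intensity was 88.7, 80.1 and 77.8 in Mock, 958, 899 and 825 in Sham, and 1657, 1874 and 1881 in Vanillin. The groups were far apart in that order. Csf3r rose by 3.21 (SE 0.077, limma adjusted p = 1.0e-09) in Sham minus Mock and by 1.00 (SE 0.077, limma adjusted p = 1.0e-05) in Vanillin minus Sham.

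Trem1 encodes an activating receptor that amplifies inflammatory responses in neutrophils and monocytes. Its intensity was 94.3, 74.1 and 78.2 in Mock, 1244, 1252 and 1161 in Sham, and 3381, 3855 and 3558 in Vanillin, again with no overlap. It rose by 3.66 (SE 0.084, limma adjusted p = 7.5e-10), or 12.6-fold on the scale of intensity + 16, and by a further 1.55 (SE 0.084, limma adjusted p = 9.3e-07), or 2.92-fold. The second step was the largest of the 10 genes in Vanillin minus Sham, where 622 probes had a larger change. Trem1 and Csf3r were as dim in Mock as S100a8 was in Sham, so the size of their first step moves with the pseudocount: 3.88 to 3.13 for Trem1 and 3.43 to 2.71 for Csf3r, with pseudocounts of 1 and 64. Trem3, the RefSeq neighbour of Trem1, rose as well, by 1.98 and 0.84.

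Clec4d encodes a C-type lectin receptor of myeloid cells that binds microbial glycolipids. Its intensity was 222, 225 and 243 in Mock, 3316, 3502 and 3572 in Sham, and 7416, 7561 and 8433 in Vanillin. It rose by 3.82 (SE 0.065, limma adjusted p = 9.7e-11) and by 1.17 (SE 0.065, limma adjusted p = 1.1e-06). RefSeq places it between the lectin genes Clec4n and Clec4e. Clec4e rose in both steps, by 0.57 and 0.52, while Clec4n rose by 2.77 and then fell by 0.47.

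**Figure D2:**
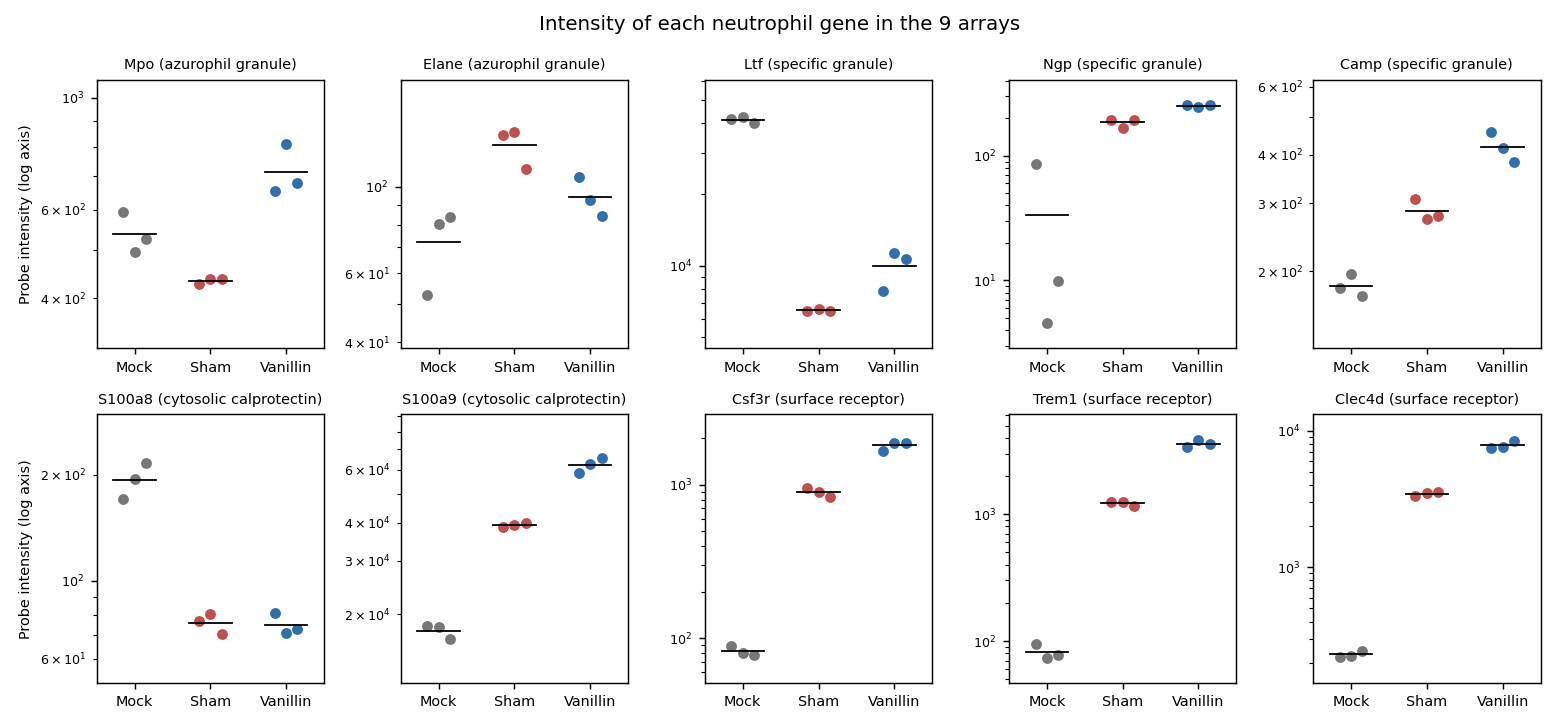
Probe intensity (log axis, a scale of its own in each panel) of the 10 genes in the 9 arrays. Points are single arrays and lines are the means of 3 arrays. Csf3r, Trem1, Clec4d, S100a9, Camp and Ngp step upward from Mock to Sham to Vanillin, Ltf and S100a8 are highest in Mock, and 1 Mock array of Ngp (85.7) stands above the others.

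Set against the untreated colon, the surface receptor genes rose most in the Vanillin group. The fall in the mature class was that of the dim S100a8 probe, and the fall in the granule class that of Ltf. In Vanillin minus Mock 7 of the 10 genes rose, 2 fell (Ltf and S100a8) and 1 was not called, where 50.7% of all probes were called, 24.5% higher and 26.2% lower. Trem1 was higher by 5.20, Clec4d by 4.99 and Csf3r by 4.21 (SE 0.065 to 0.084). Ngp was higher by 2.83, S100a9 by 1.82, Camp by 1.13 and Mpo by 0.40. Elane was at 0.34 (SE 0.15, limma adjusted p = 0.0866). The arrays of Vanillin and Mock did not overlap for any of the 10 genes (8 higher, 2 lower), as for 60.4% of all probes (29.2% higher, 31.2% lower). Only 14 probes of all had a larger change than Trem1 in this comparison.

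Wider lists of neutrophil genes were described by their counts alone. Set beside them, 36.5% of all probes rose and 23.2% fell in Sham minus Mock, and 15.7% and 32.2% in Vanillin minus Sham. Of 29 measured surface genes of mature neutrophils, 25 rose, 2 fell and 2 were not called in Sham minus Mock (median 1.49). Besides the members, Fcgr4, an activating Fc receptor, rose from a mean intensity of 190 to 1630, and Clec7a, the receptor of fungal beta-glucan, rose by 2.77. The chemokine receptor Cxcr2, which guides neutrophils into tissue, rose by 2.11. The 2 that fell were Il1r2 (-2.08), a decoy receptor of interleukin-1, and Hcar2 (-2.18), a receptor of butyrate and of the ketone body beta-hydroxybutyrate. Adding vanillin, 19 rose, 4 fell and 6 were not called (median 0.45). Hcar2 and Il1r2 rose furthest there, by 2.16 and 1.78, and Ceacam10 fell furthest, by 1.07. Leaving the 3 members out, the medians were 1.18 and 0.42.

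Of 24 cytosolic and secreted products of mature or activated neutrophils, 17 rose, 6 fell and 1 was not called in Sham minus Mock (median 0.92). Retnlg, a resistin-like protein of neutrophils, rose by 5.80, the chemokine gene Cxcl2 by 5.73 and Acod1, which makes the antimicrobial metabolite itaconate, by 4.59. A second probe of Acod1 gave 0.65. Asprv1 and Wfdc21 fell (-4.03 and -2.95), and both are also expressed in skin. With vanillin, 16 rose, 2 fell and 6 were not called (median 0.57), led by Asprv1 (3.74) and Wfdc21 (2.93), with Acod1 at 1.57 and Cxcl2 at 1.199.

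The lists of granule genes were more divided in Sham minus Mock. Of 8 azurophil granule genes of promyelocytes, 3 rose, 4 fell and 1 was not called (median -0.10). Prtn3, proteinase 3, is the RefSeq neighbour of Elane and fell by 1.09 where Elane rose. Ctsg, cathepsin G, fell by 0.27. Srgn, the core protein serglycin that packs granules in many blood cells, rose by 2.06. Vanillin minus Sham had 5 that rose, 1 that fell and 2 not called (median 0.40), with Prtn3 at 1.503, Srgn at 0.71 and Ctsg at 0.44.

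Of 18 specific and gelatinase granule genes, 10 rose, 6 fell and 2 were not called in Sham minus Mock (median 0.64). The collagenase gene Mmp8 rose by 4.24 and Mcemp1 by 2.39. Olfm4, a glycoprotein of specific granules that intestinal epithelium also makes, fell by 5.91, from a mean intensity of 11160 to 170. Orm1, an acute-phase protein of liver and neutrophils, fell by 5.22. Between Sham and Vanillin, 12 rose, 3 fell and 3 were not called (median 0.53). Orm1 rose by 5.44 and Hp, haptoglobin, by 1.17, with Ltb4r1, the leukotriene B4 receptor, at 0.93.

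**Figure D3:**
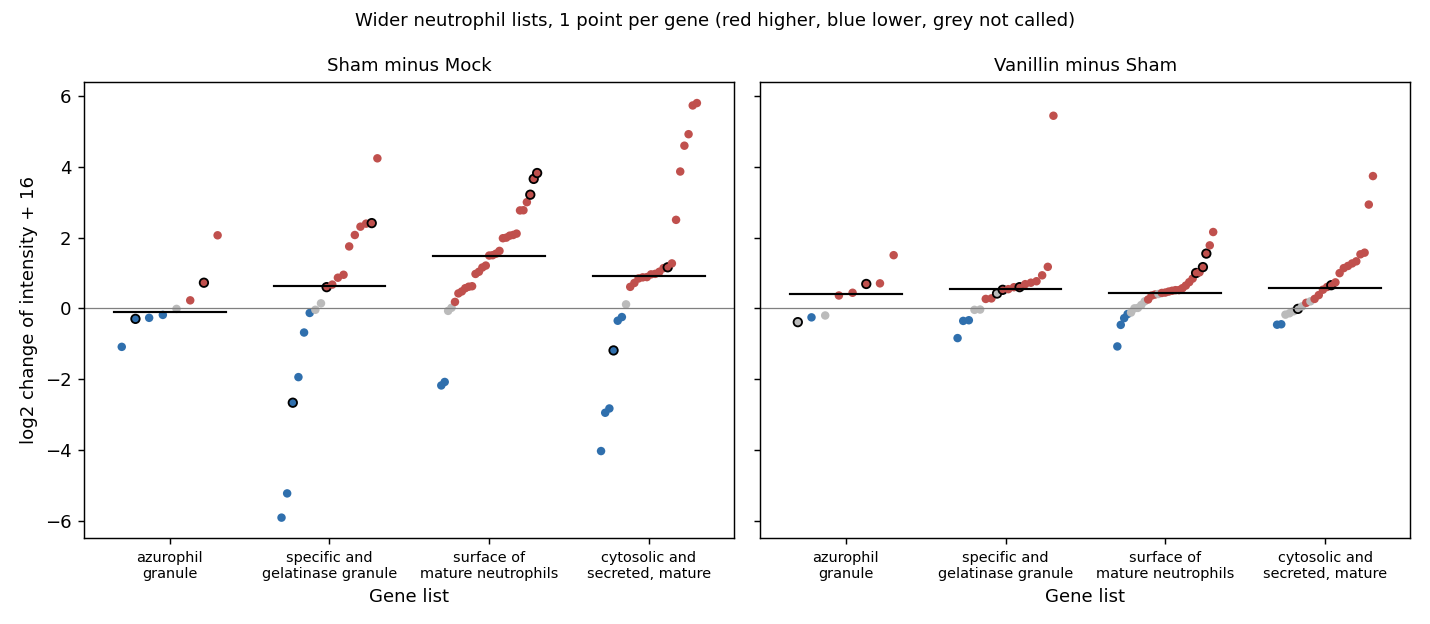
The log2 change (vertical axis, intensity + 16) of each gene of 4 neutrophil lists in Sham minus Mock (left) and Vanillin minus Sham (right), with bars at the list medians. Members are ringed in black. The surface genes have a median of 1.49 and the azurophil granule genes one of -0.10 in Sham minus Mock, against 0.45 and 0.40 in Vanillin minus Sham.

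Transcription factors of the lineage did not share 1 direction. Of 13 measured, 6 rose, 4 fell and 3 were not called in Sham minus Mock (median 0.14), where 36.5% of all probes rose and 23.2% fell. In Vanillin minus Sham 4 rose, 6 fell and 3 were not called (median -0.12), where 15.7% of all probes rose and 32.2% fell. Cebpa, the factor that starts granulocyte commitment, fell by 2.19 and then rose by 1.46. Cebpb, the factor of emergency granulopoiesis, fell by 0.57 and rose by 0.90. Irf8, which favours monocytes over granulocytes, rose by 1.23 and fell by 0.72. Cebpe, the factor that switches on specific granule genes, was dim (mean intensity 38.7 in Mock, 32.8 in Sham and 44.6 in Vanillin). It was not called in Sham minus Mock (-0.17) and rose by 0.32 in Vanillin minus Sham.

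Of 18 genes of ligands that recruit or expand neutrophils, a list that also holds the receptor C5ar1, 12 rose, 2 fell and 4 were not called in Sham minus Mock (median 1.27), and 10 rose, 4 fell and 4 were not called in Vanillin minus Sham (median 0.28). Il1b, interleukin-1 beta, rose by 3.87 and 1.53, and the chemokine gene Ccl3 by 4.92 and 0.73. Ppbp, a chemokine precursor of platelets, fell by 1.98 and rose by 2.36. Csf3, the ligand of the Csf3r receptor, was at 0.08 in Sham minus Mock, not called, and fell by 0.56 in Vanillin minus Sham. A list of 15 partners and receptors of calprotectin and of Trem1 had 9 measured genes, without the Trem1 adaptor gene Tyrobp. Of these 9, 7 rose, 1 fell and 1 was not called in Sham minus Mock (median 0.79). Cd14, the co-receptor of endotoxin, rose by 2.05, and Fcer1g, an adaptor of activating receptors, by 1.24. Basp1, which the list holds though it is not a known partner of either, rose by 2.85. The gene that fell was Bsg, basigin (-0.16). After vanillin, 2 rose, 4 fell and 3 were not called (median -0.13), and the 2 that rose were Cd14 and Fcer1g (0.57 each).

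Markers of several other cell types moved with the groups. Of all probes, 36.5% rose and 23.2% fell in Sham minus Mock, and 15.7% rose and 32.2% fell in Vanillin minus Sham. All 18 squamous epithelium markers fell in Sham minus Mock (median -5.88), and 17 rose and 1 was not called in Vanillin minus Sham (median 5.31). The keratin gene Krt1 went by -9.72 and 8.69. Their summed intensity was 775287 to 776952 in Mock, 34584 to 35672 in Sham and 479384 to 530839 in Vanillin, and none was at 0. In Sham, 5 of the 18 had a mean intensity under 50. Krt10 lay close to the highest values of the arrays in Mock (65446) and Vanillin (65464), so its changes may be too small. Of 12 adipocyte markers, 9 fell and 2 rose in Sham minus Mock (median -3.57), and 9 rose and 2 fell in Vanillin minus Sham (median 3.15). The adiponectin gene Adipoq went by -6.81 and 6.59. Their sum was 133833 to 135447 in Mock, 26676 to 27762 in Sham and 113324 to 116640 in Vanillin, with none at 0. Of the 12, 2 had a mean under 50 in Sham. Some neutrophil genes, such as Ltf, Mpo, Prtn3, Ctsg, Orm1, Il1r2, Hcar2, Hp, Ltb4r1 and Cebpa, were lowest in Sham too, while others, such as Elane, were highest there. The sizes differed, with Ltf at -2.66 and Mpo at -0.29 in Sham minus Mock. In Vanillin minus Mock, Ltf was at -2.06 and Mpo at 0.40. The medians of the squamous, adipocyte and gland lists there were -0.74, -0.29 and -0.54. Of 10 mammary and other gland markers, 6 fell and 4 were not called in Sham minus Mock, from a summed intensity of 17598 to 18406 in Mock to one of 1843 to 2077 in Sham and 2377 to 2683 in Vanillin. The milk protein gene Csn1s1 (-6.86) and Elf5, a factor of gland epithelium (-5.44), fell furthest, and none was at 0. Of the 10 gland markers, 2 had a mean under 50 in Mock, 5 in Sham and 3 in Vanillin. The part of squamous, adipocyte and gland tissue in the changes of Ltf, S100a8, S100a9 and Mpo was not tested.

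Macrophages and monocytes can also express Trem1, Clec4d and other genes of the surface list, such as Fcgr4 and Clec7a. Of 15 of their markers, 9 rose, 3 fell and 3 were not called in Sham minus Mock (median 0.91), and 7 rose, 2 fell and 6 were not called in Vanillin minus Sham (median 0.19). Their summed intensity was 35827 to 36665 in Mock, 64433 to 67345 in Sham and 69374 to 72627 in Vanillin, with none at 0. Cx3cr1, the fractalkine receptor of monocytes and macrophages, rose by 2.22 and was then at 0.19, not called, while the scavenger receptor gene Cd163 fell by 2.81 and rose by 2.29. Adgre1, which marks macrophages, rose by 0.92 and was then at 0.08, not called. The part of macrophages and monocytes in the receptor genes and in the surface list was not tested. Of 9 erythroid and marrow precursor markers, 4 rose, 3 fell and 2 were not called in each of these comparisons (medians 0.10 and 0.13), and the summed intensity was 12762 to 13111, 10373 to 10684 and 11733 to 12555 in Mock, Sham and Vanillin, with none at 0. Among 13 markers of mast cells and eosinophils, Sham minus Mock had 11 rises, 1 fall and 1 not called (median 1.009), and Vanillin minus Sham 9 rises, 2 falls and 2 not called (median 0.63). Their summed intensity was 10201 to 10600 in Mock, 45282 to 48373 in Sham and 74174 to 76062 in Vanillin. The mast cell protease gene Mcpt2 rose by 7.99 and 0.66.

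Among 11 markers of T and NK cells, 7 rose, 2 fell and 2 passed no test in Sham minus Mock (median 0.36), and 3 rose, 3 fell and 5 passed none in Vanillin minus Sham (median -0.17). Of 18 colonocyte markers, 8 rose, 4 fell and 6 were not called in Sham minus Mock (median 0.13). Cdx2 rose furthest (3.13) and Slc26a3 fell furthest (-2.98). From Sham to Vanillin none rose, 12 fell and 6 passed no test (median -0.33).

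**Figure D4:**
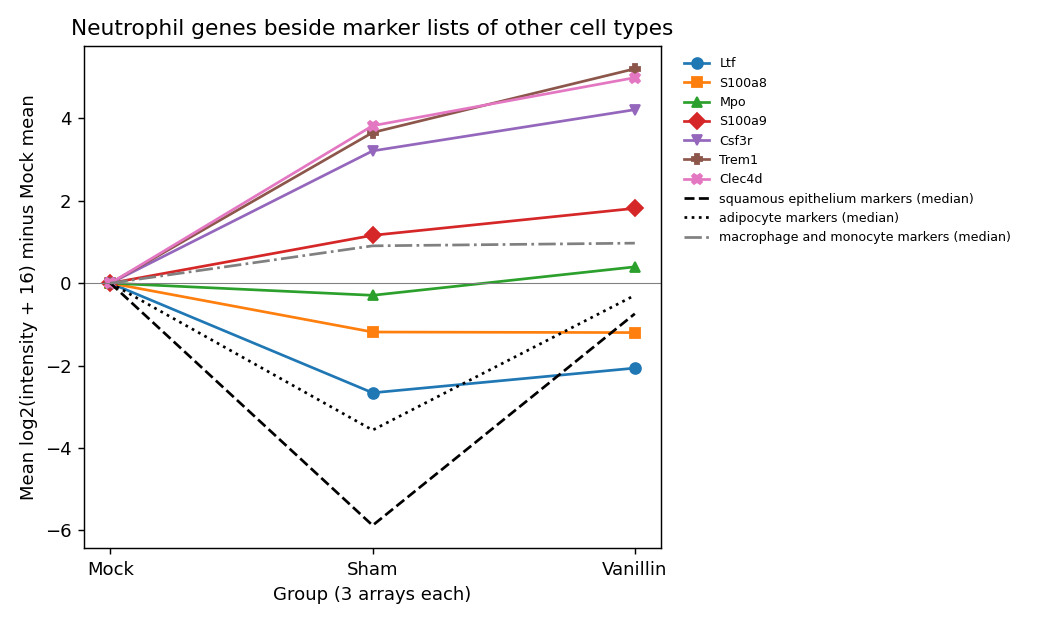
Mean log2(intensity + 16) of 7 of the genes in each group of 3 arrays, relative to Mock, with the median change of 3 marker lists of other cell types. Trem1 reaches 5.20, Clec4d 4.99 and Csf3r 4.21 above Mock in Vanillin, while the squamous list goes to -5.88 in Sham and returns to -0.74 in Vanillin.

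The genes whose pattern was most like that of 4 members were found by Pearson's r of log2 values over the 9 arrays, among 3345 probes whose group means differed by at least 1 (the range of log2 means). The 9 points fall into 3 groups that share treatment, so r mostly reflects the order of the group means and is a description. For Trem1 the nearest were Samsn1, Nrsn1, Il24, Acod1 and Plek (r of 0.998 to 1.000). Samsn1 went from a mean intensity of 176 in Mock to 802 in Sham and 1604 in Vanillin, and Acod1 from 26.2 to 1003 and 3021. For Ltf they were Pdlim3, Ak4, St3gal2, Tagln and Smarcd3 (0.996 to 0.999). Pdlim3 and Tagln are known as muscle genes, and Pdlim3 went from 20202 to 2918 and 4435. For S100a8 they were Olfr220, Calca, Dlx6, Ndrg4 and Tnnt1 (0.992 to 0.995), and Calca, the gene of calcitonin and its related neuropeptide, went from 153 to 50.8 and 46.5. For Ngp they were BB014433, Slfn1, Prok2, Trpa1 and C130050O18Rik (0.962 to 0.979), and Prok2, a prokineticin that neutrophils make, went from 207 to 374 and 457. Ngp varied widely within Mock (85.7, 4.56 and 9.89), so its r also reflects Mock replicate 1.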

How the data were processed

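RNA of 9 colon samples was amplified and labelled with Cy5, per the labels' protocols. The deposited series table gives linear probe intensity. Its sorted log2 values differed by at most 0.109 between arrays, as after quantile normalization, and 3 to 14 probes per array were below 0. The submitters' processing notes name limma without a role. The sources used here do not give the scanner, the background method or a probe filter.

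Negative values were set to 0 and log2(intensity + 16) was fitted with limma 3.58.1 in R 4.3.3 (3 group means, 6 residual degrees of freedom, two-sided moderated test, Benjamini-Hochberg over 26423 probes). The platform table names 1 gene for 20377 probes and lists no gene for 6046, and old symbols were updated through RefSeq (2126 probes). A list gene is given by its brightest probe. Named genes are the members, up to 4 genes with the smallest p per list in each of the 2 main comparisons, and the 5 most alike genes of 4 members. C5ar1, Cxcr2, Trem3, Clec4e, Csf3, Cebpe, Adgre1, Bsg, Krt8 and Lgals4 were named after their values were seen. Members, lists and tests were chosen with earlier results of these data known. Promoters come from RefSeq. Deviations from the group means of same-numbered arrays had r of 0.13 to 0.20 between Sham and Vanillin (-0.20 to 0.00 for other numbers). This was a hint from the data, and not from the labels, that these numbers pair the arrays there. The main fit had no pairing, and the numbers served as a block in alternative fits only. The hint is weak, since r reached 0.21 between Mock and Vanillin arrays of other numbers. Deviations within a group sum to 0, so values for same and other numbers are not independent, and pairing was not settled. Mock gave no such hint (r of -0.29 to -0.02 with arrays of the same number). The fit was tested on simulated data. Python 3.11.15 with matplotlib 3.10.9 drew the figures. Alternatives: pseudocount, dim probes left out, repeated quantile normalization, only the arrays compared, array weights, intensity trend, replicate block and each array left out. A replicate block with only the Sham and Vanillin arrays was chosen after seeing the data.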

Additional observations from a re-analysis of the deposited data

How the results depend on the processing

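The counts of called probes stayed within 1.5 times of the values given under every alternative, and so did the members called higher. With the replicate block in all 9 arrays 15498 probes were called in Sham minus Mock (15787 without it), 12269 in Vanillin minus Sham (12659) and 13021 in Vanillin minus Mock (13404), with 7, 7 and 7 members higher and 3, 0 and 2 lower, and no call of a member changed. In the 6 Sham and Vanillin arrays, whose numbers deviated together, the block gave 11587 probes called, and 8 members higher (Ngp added) and 1 lower (Elane), the same member counts as those arrays without the block. It changed no other call of a member. The members called lower in Vanillin minus Sham went from 0 to 1 (Elane) with a pseudocount of 64, with only the 6 samples compared and with array weights, and were 0 to 1 over the fits that left out an array.

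The median change of the mature class in Sham minus Mock was 3.43 and 2.71 with pseudocounts of 1 and 64, 3.25 with array weights, 3.66 with calprotectin left out, and 3.16 to 3.27 without single arrays. In Vanillin minus Sham it was 1.04, 1.17 and 0.95 to 1.06 for the last 3 of these, and in Vanillin minus Mock 4.44, 3.67, 4.30, 4.99 and 4.18 to 4.27. The granule class had 0.15 and 0.76 in Sham minus Mock and Vanillin minus Mock without the dimmest 30% of probes, which removes Elane, and 0.53 in Vanillin minus Mock with array weights. S100a8 in Vanillin minus Sham ran from -0.060 to 0.02 without single arrays, with 0.021, 0.016 and 0.0035 where it turned sign. Each gene has 1 probe, so a mean over probes gives the same values. With 3 arrays per group no array was tested as an outlier, and dim signal limits Ngp, Elane and S100a8, and Csf3r and Trem1 in Mock.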
